A study of Homo sapiens with 6 samples.

Results

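Gonadotropin receptors, adenylyl cyclases, protein kinase A (PKA) subunits, A-kinase anchoring proteins, cyclic nucleotide phosphodiesterases and the CREB transcription factors were followed in KGN, a cell line derived from a human granulosa cell tumour of the ovary. The members were defined by gene symbol: the numbered ADCY, PDE and AKAP genes, the PRKAC and PRKAR genes, and FSHR, LHCGR, GNAS, CREB1, CREM and ATF1, which gave 60 of the 20030 gene names in the count table. The SNHG5 siRNA group held 3 libraries of cells given an siRNA to SNHG5, a gene for a long noncoding RNA, and the control siRNA group held 3 libraries of cells transfected with a negative control siRNA. All 6 were mRNA libraries of the same line, grown in DMEM/F12 with 10% serum and collected 48 h after transfection, and no hormone is named in the labels. A single line and a single SNHG5 siRNA condition limit what the groups can stand for. Whether replicates came from separate cultures is not stated in the labels, and p-values therefore reflect only how far these libraries scatter, which may be technical. SNHG5 itself was not analysed here.

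Follicle-stimulating hormone binds FSHR on granulosa cells and luteinizing hormone binds LHCGR. Both receptors act through the stimulatory G protein, whose alpha subunit GNAS encodes, and adenylyl cyclases then make cAMP from ATP. Cyclic AMP binds the regulatory subunits of PKA and frees the catalytic subunits, which phosphorylate CREB1, CREM and ATF1, while A-kinase anchoring proteins hold PKA at given places in the cell and phosphodiesterases break cAMP down. In granulosa cells this pathway drives steroid synthesis and follicle growth.

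The series title names miR-92a-3p, so its sequence is shown first, beside the stretch of 3' UTR around the 7-base word it could pair with in 3 changed members that hold the word and in CREB1, the central factor of the pathway, which holds it and did not pass. The miRNA is given with its seed, bases 2 to 8, in capitals, from RefSeq on GRCh38.p14, where MIR92A1 places it at chr13:91351361-91351382 on the plus strand. The UTR stretches are from GENCODE v29 on GRCh38, read 5′ to 3′ on the transcript, with the word GTGCAAT in capitals.
hsa-miR-92a-3p: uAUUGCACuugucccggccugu
PDE8A, chr15:85138329-85138335, plus strand: catcatagaagGTGCAATcgctcacttgg
PRKAR1B, chr7:549204-549210, minus strand: aagcattaaacGTGCAATgaagta
PDE1A, chr2:182142722-182142728, minus strand: tcataatgactGTGCAATacatgtgcaga
CREB1, chr2:207597493-207597499, plus strand: aagtaagtaagGTGCAATgaagaagtgtt

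Total counts ranged from 18232634 to 22088913 per library, and the members took 0.220% to 0.257% of them. The granulosa markers FOXL2 and NR5A1 were present in every library, at 455 counts or more each, whereas AMHR2 had at most 1 count, INHA at most 11 and CYP19A1 at most 11. Of 14 granulosa markers, 11 could be tested, 1 was higher and 5 were lower with SNHG5 siRNA, the member FSHR among the lower. That is 9.09% higher and 45.5% lower, where 20.3% of all tested genes were higher and 19.9% lower. Their summed level was 2994 to 3310 CPM, or counts scaled to library size, with SNHG5 siRNA and 4445 to 4518 CPM with control siRNA, and KRT18 held most of it. The part of this shift in the results was not tested, and fewer cells of a kind and less RNA per cell cannot be told apart in these libraries. Markers of other cells differed in level: the theca genes CYP17A1 and INSL3, the oocyte genes DDX4, BMP15 and DAZL, the immune genes LYZ and CD3E and the endothelial gene CDH5 were at 0 in all libraries. The stroma gene PDGFRA had 503 to 587 counts with SNHG5 siRNA and 573 to 603 with control siRNA, and the immune gene PTPRC had 37 to 40 counts with SNHG5 siRNA and 40 to 50 with control siRNA. The 4 theca genes summed to 10.6 to 12.3 CPM with SNHG5 siRNA and 19.0 to 21.0 CPM with control siRNA, all of it PTCH1. Sums were 0.201 to 0.226 CPM with SNHG5 siRNA and 0.195 to 0.345 CPM with control siRNA for oocyte genes, and 1.94 to 2.16 CPM with SNHG5 siRNA and 2.07 to 2.80 CPM with control siRNA for immune genes. They were 1.41 to 2.26 CPM with SNHG5 siRNA and 1.70 to 2.10 CPM with control siRNA for endothelial genes, and 25.5 to 29.03 CPM with SNHG5 siRNA and 29.4 to 32.0 CPM with control siRNA for ovarian stroma genes. SNHG5 siRNA replicate 2 stood apart, since counts of it and of each fellow replicate gave chi-square values of 8.61 and 8.81 per degree of freedom. The remaining SNHG5 siRNA pair gave 1.91, and pairs of controls gave 3.10 to 4.41. Its deviations from the group mean ran with transcript length (Spearman correlation -0.494 across 12348 genes, which share a library and are not replicates), and this lay between -0.25 and 0.396 in the other libraries.

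Of the 60 members, 38 had enough counts to be tested, 16 were detected in at least 1 library but too low to test, and 6 had no count in any library. With SNHG5 siRNA 10 members were higher and 7 were lower at an adjusted p under 0.05 by edgeR's quasi-likelihood test, while 21 did not pass. The passing share was 44.7% of the tested members, close to the 40.2% of all 12508 genes tested that passed, of which 20.3% of genes were higher and 19.9% lower. The group as a whole therefore did not stand out by its count of calls. Its median log2 fold change was 0.07 and its median absolute log2 fold change was 0.16, beside -0.01 and 0.17 over all genes tested. CPM ranges were separate between groups for 20 tested members, 12 higher and 8 lower, where 49.8% of all tested genes did not overlap. Without SNHG5 siRNA replicate 2, 15 members were higher and 8 lower, or 60.5% of the 38, against 44.4% of all genes tested. All 17 calls were among these, and ADCY3, ADCY9, AKAP9, AKAP11, GNAS and PRKAR1A joined them. With upper-quartile scaling 7 members were higher and 9 lower, and 39.9% of all passing genes were higher, against 50.5% with the TMM scaling used here.

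**Figure D1:**
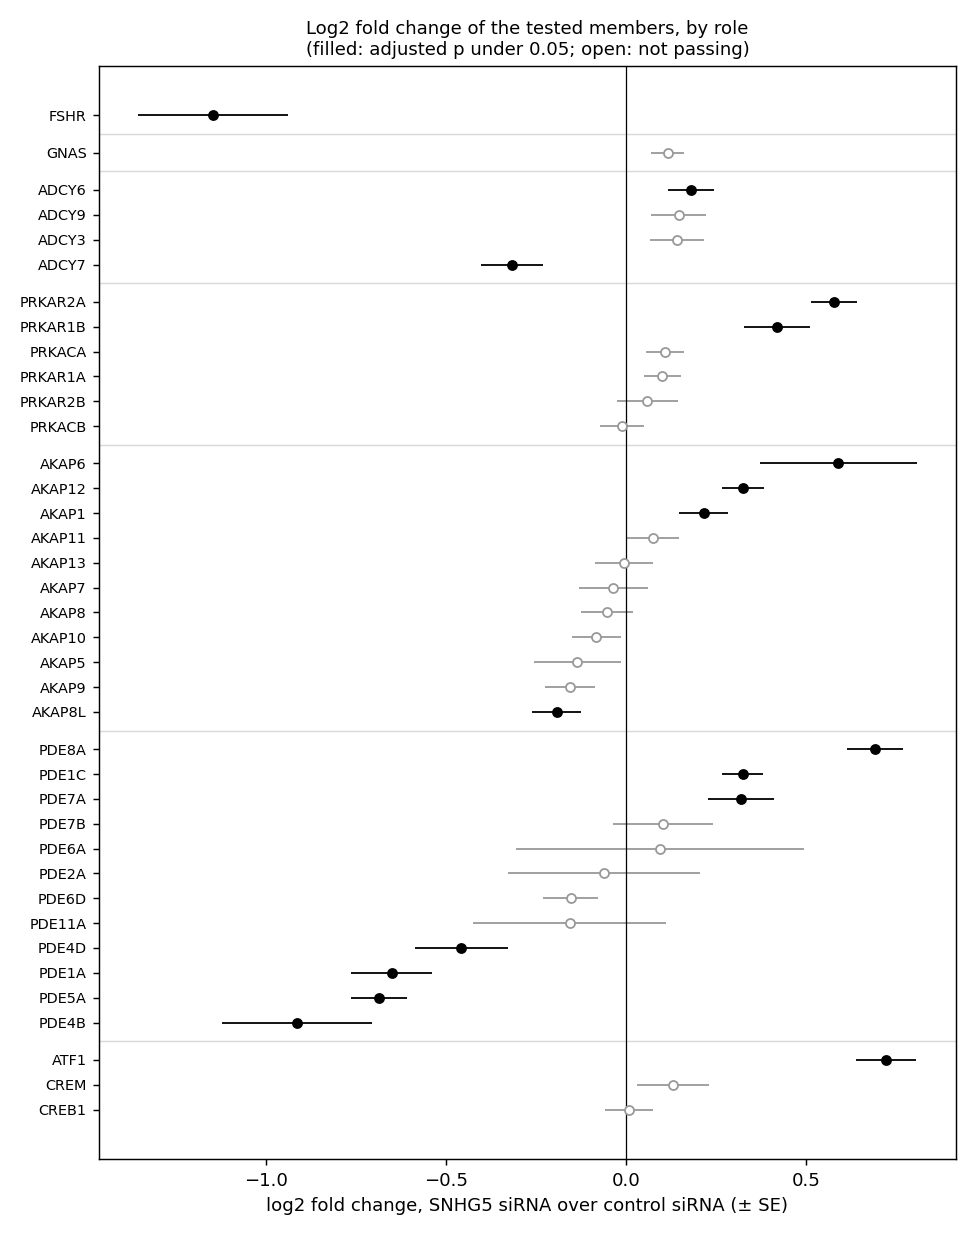
Log2 fold change of each of the 38 tested members (horizontal axis, SNHG5 siRNA over control siRNA, bars ± SE), grouped by role from receptors at the top to CREB factors at the bottom; filled points passed at an adjusted p under 0.05. FSHR lies farthest to the left at -1.15 and ATF1 farthest to the right at 0.72, and the phosphodiesterases spread to both sides.

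The FSH receptor was the member with the largest fold change, and it was low in all 6 libraries. FSHR (chr2:48962157-49154537, minus strand, GRCh38) had 31, 23 and 36 counts in SNHG5 siRNA replicates 1, 2 and 3, against 70, 68 and 54 counts in control siRNA replicates 1, 2 and 3. These were 1.40, 1.16 and 1.85 CPM with SNHG5 siRNA and 3.42, 3.35 and 2.97 CPM with control siRNA. Every SNHG5 siRNA library lay below every control library. FSHR averaged 1.47 ± 0.354 CPM with SNHG5 siRNA and 3.25 ± 0.242 CPM with control siRNA (SD, n = 3 each), a log2 fold change of -1.15 (SE 0.21, adjusted p = 0.000232, edgeR) or 2.21-fold lower. Per transcript length it stood at 0.0675 ± 0.0145 FPKM (fragments scaled to transcript length and library size) with SNHG5 siRNA and 0.156 ± 0.00677 FPKM with control siRNA. On the log2(FPKM + 1) scale the difference was -0.12 and did not pass (adjusted p = 0.072, limma), where 1 was added to values far below 1. The LH receptor LHCGR had 0 counts and was listed at 0 FPKM in every library. Its floor of 3 counts stood at 0.136 to 0.165 CPM, so LHCGR was not detectable at this depth and no comparison could be made.

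GNAS, the coupling subunit, was among the most abundant members and stayed just short of the threshold. It had 408, 425 and 418 CPM with SNHG5 siRNA and 382, 391 and 383 CPM with control siRNA. All 3 SNHG5 siRNA libraries lay above the controls, yet by little. Means were 417 ± 8.69 CPM with SNHG5 siRNA and 385 ± 4.85 CPM with control siRNA, with a log2 fold change of 0.12 (SE 0.05, adjusted p = 0.0547, edgeR). It passed in 9 of 18 other settings, among them without SNHG5 siRNA replicate 2 (0.10, adjusted p = 0.0459). GNAS shares exons with antisense transcripts including GNAS-AS1, and whether the counting used strand is not given in the sources used here.

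Adenylyl cyclases that passed differed in direction. Of 10 cyclase genes 4 were tested: 1 was higher, 1 was lower and 2 did not pass. That is 50% passing beside 40.2% of all genes, and with 4 genes the difference in share was not tested. ADCY7 was the lower one, at 47.4, 38.0 and 47.3 CPM with SNHG5 siRNA and 60.3, 56.7 and 48.3 CPM with control siRNA. The highest SNHG5 siRNA library and the lowest control library were close, though the groups did not overlap. ADCY7 averaged 44.2 ± 5.41 CPM with SNHG5 siRNA and 55.1 ± 6.13 CPM with control siRNA, a log2 fold change of -0.32 (SE 0.09, adjusted p = 0.00621, edgeR). It did not pass in any of the 3 fits to FPKM (-0.21 to -0.24, adjusted p 0.0834 to 0.15, limma), and it overlaps exons of BRD7 on the other strand, whose log2 fold change was 0.25. ADCY6, a cyclase inhibited by calcium, was higher at 52.7, 47.7 and 49.8 CPM with SNHG5 siRNA and 43.7, 42.3 and 46.8 CPM with control siRNA. Its groups were adjacent but separate, and the log2 fold change was 0.18 (adjusted p = 0.0319, edgeR). That call ended without SNHG5 siRNA replicate 1 (0.14, adjusted p = 0.171), SNHG5 siRNA replicate 3 (0.18, 0.0672), control siRNA replicate 1 (0.17, 0.101) or control siRNA replicate 2 (0.15, 0.152), and in 3 other settings. ADCY3, a calcium-responsive cyclase, had 31.9, 30.0 and 32.9 CPM with SNHG5 siRNA and 29.8, 29.5 and 26.6 CPM with control siRNA. Its groups did not overlap, but the difference of 0.14 on the log2 scale did not pass (adjusted p = 0.143, edgeR), except without SNHG5 siRNA replicate 2 (0.18, 0.0434) and in 3 other settings. ADCY3 overlaps exons of CENPO on the other strand, whose log2 fold change was 0.21 (adjusted p = 0.00448, edgeR). ADCY1 was at 0 throughout, and ADCY2, ADCY4, ADCY5, ADCY8 and ADCY10 had at most 6 counts in a library.

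Among 6 tested PKA genes, 2 regulatory subunits were higher, and the other regulatory and the catalytic subunits did not pass. That is 33.3% passing, beside 40.2% of all genes tested. PRKAR2A, the type II alpha regulatory subunit (chr3:48744597-48847846, minus strand), had 130, 116 and 137 CPM with SNHG5 siRNA and 81.8, 86.4 and 89.1 CPM with control siRNA. The groups were well apart, with the lowest SNHG5 siRNA library above the highest control. Means were 128 ± 10.6 CPM with SNHG5 siRNA and 85.7 ± 3.67 CPM with control siRNA, so PRKAR2A was 1.49-fold higher (log2 fold change 0.58, SE 0.06, adjusted p = 7.61e-07, edgeR). Its antisense partner PRKAR2A-AS1 was not in the count table. PRKAR1B, the type I beta regulatory subunit, had 25.8, 30.4 and 29.7 CPM with SNHG5 siRNA and 19.8, 24.1 and 20.3 CPM with control siRNA. Again every SNHG5 siRNA library was above every control, by a smaller margin. Its log2 fold change was 0.42 (SE 0.09, adjusted p = 0.00122, edgeR), and DNAAF5, which overlaps its exons on the other strand, had one of -0.27.

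The other PKA subunits differed less. PRKAR1A, the type I alpha subunit and the PKA gene with the most counts, had 282, 267 and 281 CPM with SNHG5 siRNA and 255, 247 and 272 CPM with control siRNA. The groups overlapped, and the difference of 0.10 on the log2 scale did not pass (adjusted p = 0.133, edgeR), although without SNHG5 siRNA replicate 2 it did (0.13, adjusted p = 0.0193). The catalytic subunit gene PRKACA averaged 96.8 ± 1.09 CPM with SNHG5 siRNA and 89.9 ± 2.34 CPM with control siRNA, a log2 fold change of 0.11 (adjusted p = 0.113, edgeR) that passed in 4 of 18 other settings. PRKACB, the other catalytic gene, averaged 83.6 ± 0.802 CPM with SNHG5 siRNA and 84.3 ± 7.26 CPM with control siRNA. PRKAR2B, the type II beta subunit, averaged 18.8 ± 0.882 CPM with SNHG5 siRNA and 18.1 ± 1.33 CPM with control siRNA. The differences of PRKACB and PRKAR2B were within the spread of their libraries. The third catalytic gene, PRKACG, was at 0.

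Of 11 tested anchoring proteins 3 were higher, 1 was lower and 7 did not pass, or 36.4% passing beside 40.2% of all genes, with a median log2 fold change of -0.04. AKAP12, a scaffold also called gravin, had 159, 146 and 164 CPM with SNHG5 siRNA and 130, 125 and 119 CPM with control siRNA. All SNHG5 siRNA libraries lay above all controls. Its log2 fold change was 0.32 (SE 0.06, adjusted p = 0.000181, edgeR). AKAP1, which anchors PKA at mitochondria, was higher by a log2 fold change of 0.21 (adjusted p = 0.0176, edgeR), but not without SNHG5 siRNA replicate 3 (0.20, 0.0604) or control siRNA replicate 3 (0.17, 0.0737), nor with upper-quartile scaling (0.17, 0.0517). AKAP8L, a nuclear protein, was lower by -0.19 (adjusted p = 0.0303, edgeR), but not without SNHG5 siRNA replicate 1 (-0.14, 0.195), control siRNA replicate 1 (-0.17, 0.105) or control siRNA replicate 2 (-0.18, 0.0998), with the GC trend removed (-0.09, 0.247) or in the 3 fits to FPKM.

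AKAP6, an anchor known from the nuclear envelope of muscle cells, was near the limit of what these counts can show. It had 3.43, 2.36 and 3.71 CPM with SNHG5 siRNA and 1.56, 2.31 and 2.47 CPM with control siRNA. The lowest SNHG5 siRNA library lay below the highest control, so the groups overlapped. The log2 fold change of 0.59 (SE 0.22, adjusted p = 0.0376, edgeR) passed with all libraries but not without SNHG5 siRNA replicate 1 (0.52, 0.111), SNHG5 siRNA replicate 3 (0.47, 0.142), control siRNA replicate 1 (0.41, 0.18), control siRNA replicate 2 (0.66, 0.0531) or control siRNA replicate 3 (0.71, 0.053), and in 4 other settings not either. AKAP2 had only 0 to 8 counts per library, yet the authors' FPKM table listed it at 29.7, 26.8 and 29.6 FPKM with SNHG5 siRNA and 30.7, 31.8 and 31.0 FPKM with control siRNA. Its exons overlap those of PALM2-AKAP2 on the same strand, the deposited tables disagree for it, and it was not compared. AKAP3 had 7 to 13 counts, AKAP14 at most 5, and AKAP4 had none.

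Phosphodiesterases held the most divergent changes. Of 22 genes 12 were tested: 3 were higher, 4 were lower and 5 did not pass, or 58.3% passing beside 40.2% of all genes. Their median log2 fold change was -0.11 and their median absolute one 0.32. PDE4B (chr1:65792514-66374579, plus strand), which breaks down cAMP only, had 1.71, 1.91 and 2.01 CPM with SNHG5 siRNA and 4.0, 2.56 and 4.07 CPM with control siRNA. The groups did not overlap, and control siRNA replicate 2 was nearest to the SNHG5 siRNA libraries. PDE4B was 1.88-fold lower (log2 fold change -0.91, SE 0.21, adjusted p = 0.00176, edgeR). PDE4D, also specific to cAMP, had 5.14, 5.38 and 7.16 CPM with SNHG5 siRNA and 8.25, 8.07 and 7.86 CPM with control siRNA. Here SNHG5 siRNA replicate 3 came close to the controls. The log2 fold change of -0.46 (SE 0.13, adjusted p = 0.00854, edgeR) did not pass without SNHG5 siRNA replicate 1 (-0.36, 0.0555) or in the 3 fits to FPKM.

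PDE5A (chr4:119494395-119628991, minus strand), which is specific to cGMP, had 29.2, 24.0 and 29.4 CPM with SNHG5 siRNA and 43.2, 43.6 and 46.3 CPM with control siRNA. The gap between the groups was wider than the range within either. PDE5A was 1.61-fold lower (log2 fold change -0.69, SE 0.08, adjusted p = 1.34e-06, edgeR). PDE1A, a calmodulin-dependent enzyme that breaks down both cyclic nucleotides, had 5.46, 5.48 and 5.77 CPM with SNHG5 siRNA and 8.60, 8.37 and 9.29 CPM with control siRNA. The SNHG5 siRNA libraries lay tightly together below the controls. PDE1A was 1.57-fold lower (log2 fold change -0.65, SE 0.11, adjusted p = 0.000142, edgeR).

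PDE1C, another calmodulin-dependent enzyme, went the other way from PDE1A. It had 377, 339 and 397 CPM with SNHG5 siRNA and 300, 284 and 305 CPM with control siRNA. It was higher in every SNHG5 siRNA library, with a log2 fold change of 0.32 (SE 0.06, adjusted p = 0.000182, edgeR). PDE8A (chr15:84980440-85139145, plus strand), which binds cAMP with high affinity, had 40.2, 36.7 and 40.8 CPM with SNHG5 siRNA and 26.1, 22.4 and 24.5 CPM with control siRNA. The groups were far apart relative to their ranges. PDE8A was 1.61-fold higher (log2 fold change 0.69, SE 0.08, adjusted p = 9.86e-07, edgeR). PDE7A, specific to cAMP, had 22.1, 18.1 and 21.4 CPM with SNHG5 siRNA and 15.5, 17.1 and 16.8 CPM with control siRNA. SNHG5 siRNA replicate 2 was close to the controls. The log2 fold change of 0.32 (SE 0.09, adjusted p = 0.00897, edgeR) did not pass without control siRNA replicate 1 (0.28, 0.0514) or in the 3 fits to FPKM, and the neighbouring MTFR1, which shares exon sequence with it on the other strand, had one of -0.02.

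The remaining phosphodiesterases did not pass or were too low. PDE6D, which carries prenylated proteins and is not itself an enzyme, had 23.6, 23.2 and 25.2 CPM with SNHG5 siRNA and 25.4, 27.1 and 27.7 CPM with control siRNA. Its groups did not overlap, and its log2 fold change was -0.15 (adjusted p = 0.119, edgeR), passing only with upper-quartile scaling. PDE2A, PDE6A, PDE7B and PDE11A had log2 fold changes of -0.06, 0.09, 0.10 and -0.16, none of which passed. PDE8B, the close relative of PDE8A, had 2, 1 and 0 counts with SNHG5 siRNA and 9, 2 and 4 counts with control siRNA, too few to test. PDE1B, PDE3A, PDE3B, PDE4C and PDE9A had at most 3 counts in a library, PDE4A and PDE10A at most 10, and PDE6B and PDE6C none.

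**Figure D2:**
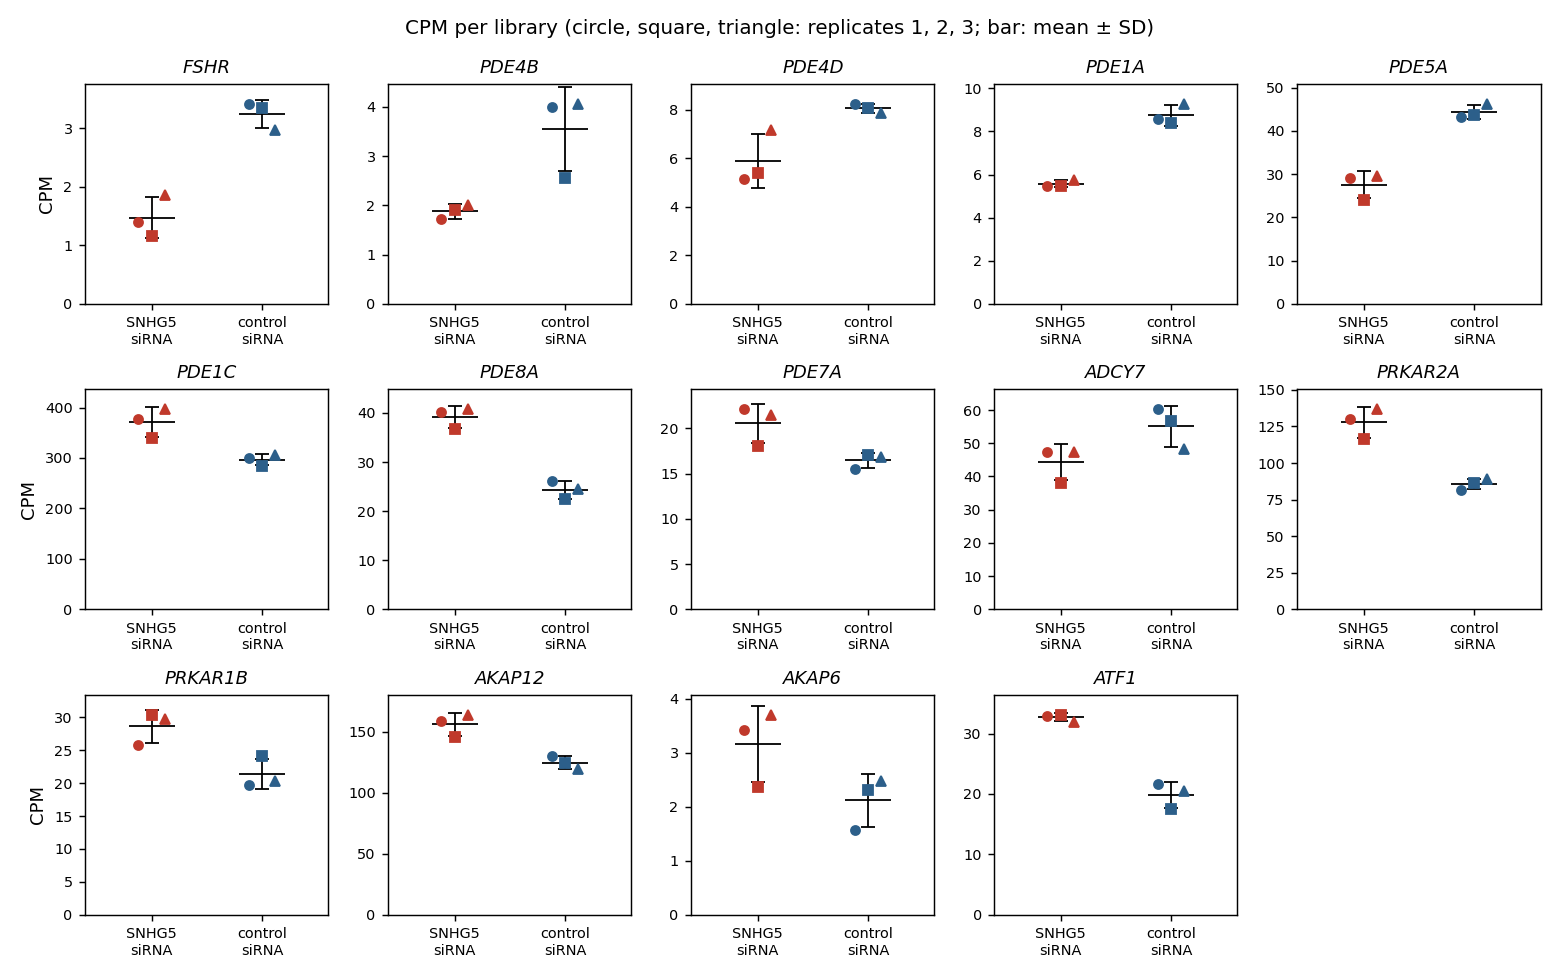
CPM in each library of the 14 members that passed with an absolute log2 fold change of at least 0.3 (vertical axes start at 0; circles, squares and triangles are replicates 1, 2 and 3; bars are mean ± SD, n = 3), with SNHG5 siRNA in red at the left and control siRNA in blue at the right of each panel. The groups overlap for AKAP6 and in no other panel; FSHR, PDE4B, PDE4D, PDE1A, PDE5A and ADCY7 were lower, and the rest were higher.

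Of the PKA-responsive factors, ATF1 was higher while CREB1 and CREM did not pass, or 33.3% passing beside 40.2% of all genes. ATF1 (chr12:50763710-50821122, plus strand) had 33.0, 33.1 and 32.0 CPM with SNHG5 siRNA and 21.6, 17.5 and 20.4 CPM with control siRNA. The SNHG5 siRNA libraries lay tightly together and well above every control. ATF1 was 1.65-fold higher (log2 fold change 0.72, SE 0.08, adjusted p = 1.57e-06, edgeR). CREB1 had 74.9, 68.4 and 84.1 CPM with SNHG5 siRNA and 77.3, 72.4 and 76.5 CPM with control siRNA. The SNHG5 siRNA libraries spanned the controls, and the log2 fold change was 0.01 (adjusted p = 0.942, edgeR), with a sign that changed under other settings. CREM, whose short forms repress cAMP-responsive genes, had 16.0, 21.1 and 16.5 CPM with SNHG5 siRNA and 16.5, 15.6 and 16.8 CPM with control siRNA. Only SNHG5 siRNA replicate 2 stood above the controls, and the log2 fold change of 0.13 (adjusted p = 0.318, edgeR) was -0.0012 without it. The other 14 tested members that did not pass (ADCY9, AKAP5, AKAP7, AKAP8, AKAP9, AKAP10, AKAP11, AKAP13, PDE2A, PDE6A, PDE7B, PDE11A, PRKACB and PRKAR2B) had log2 fold changes of -0.16 to 0.15 and adjusted p of 0.0835 to 0.956 (edgeR).

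Levels of different genes were set side by side only on the FPKM scale, which allows for length. GNAS and PRKAR1A stood highest: GNAS averaged 50.8 FPKM with SNHG5 siRNA and 43.2 FPKM with control siRNA, and PRKAR1A averaged 49.0 FPKM with SNHG5 siRNA and 47.0 FPKM with control siRNA. PRKACA, at 22.2 FPKM with SNHG5 siRNA and 19.9 FPKM with control siRNA, exceeded PRKACB, at 10.1 FPKM with SNHG5 siRNA and 10.9 FPKM with control siRNA. Among phosphodiesterases PDE1C was the most abundant, at 20.4 FPKM with SNHG5 siRNA and 17.0 FPKM with control siRNA. The order of PDE5A and PDE8A differed between the groups: with SNHG5 siRNA PDE5A was at 2.70 FPKM and PDE8A at 4.48 FPKM, and with control siRNA PDE5A was at 4.53 FPKM and PDE8A at 2.71 FPKM. The 4 tested cyclases lay close together, from 3.82 FPKM for ADCY3 to 5.75 FPKM for ADCY9 with SNHG5 siRNA, and from 3.26 FPKM for ADCY3 to 6.66 FPKM for ADCY7 with control siRNA.

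**Figure D3:**
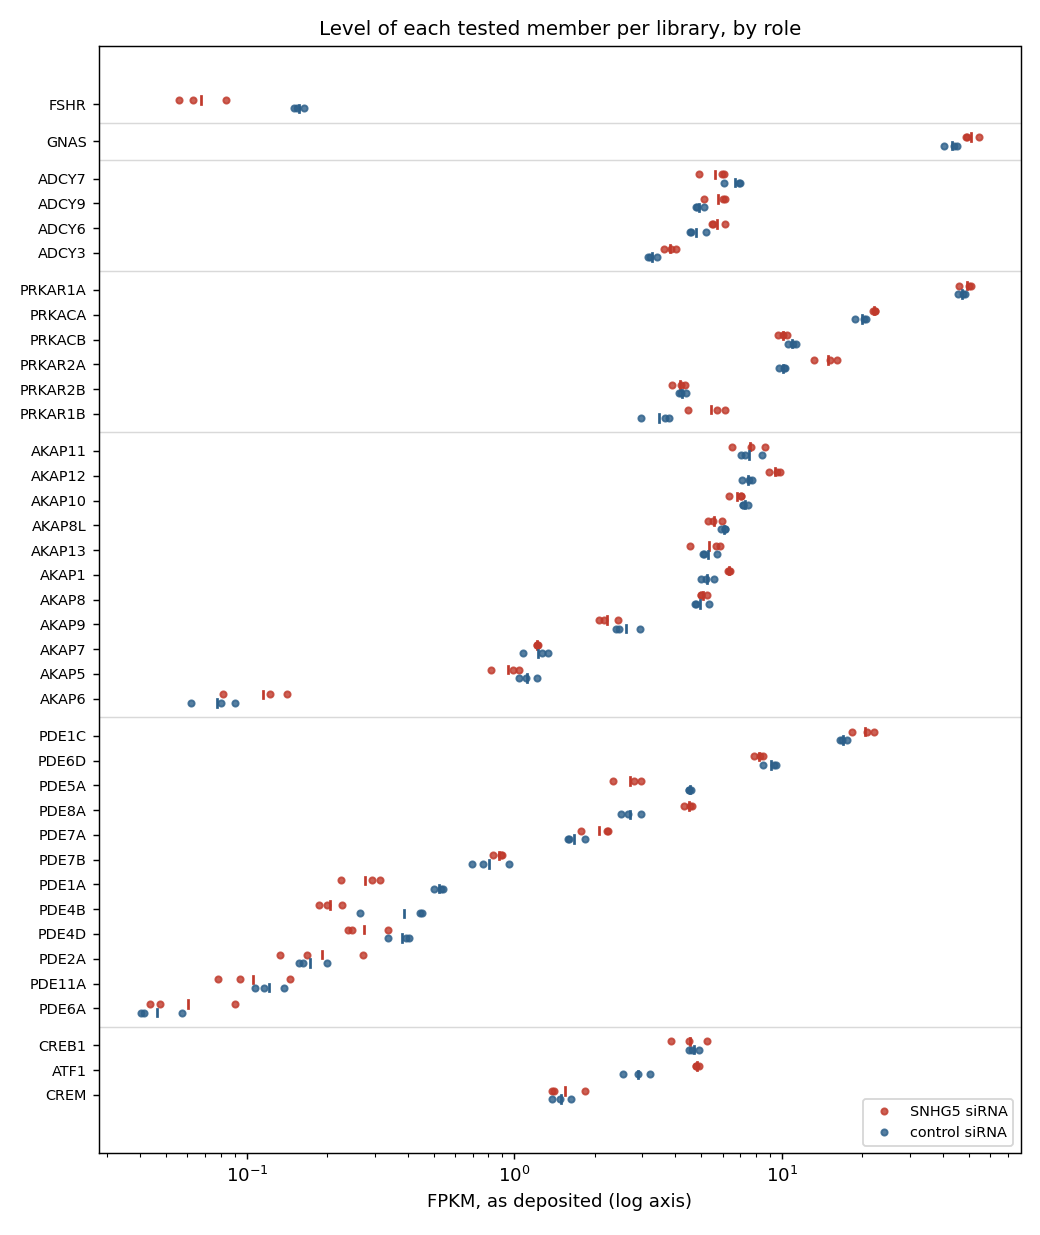
Deposited FPKM of each tested member in each library (log axis; points are libraries, vertical ticks are group means), SNHG5 siRNA in red above control siRNA in blue. PRKAR1A and GNAS lie at 43.2 FPKM or more on average in both groups, while FSHR lies below 0.2 FPKM in every library.

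Within families the make-up shifted. PDE1C made up 64.3% ± 0.491 of the summed phosphodiesterase FPKM (without PDE6D) with SNHG5 siRNA and 59.7% ± 0.466 with control siRNA. PDE8A made up 14.2% ± 0.739 with SNHG5 siRNA and 9.53% ± 0.570 with control siRNA, and PDE5A made up 8.51% ± 0.302 with SNHG5 siRNA and 16.0% ± 0.541 with control siRNA. The sum itself was 31.7 ± 2.80 FPKM with SNHG5 siRNA and 28.4 ± 0.753 FPKM with control siRNA, and the groups overlapped. The adenylyl cyclases summed to 20.9 ± 1.63 FPKM with SNHG5 siRNA and 19.6 ± 0.305 FPKM with control siRNA, and these groups overlapped too. PKA regulatory subunits summed to 73.4 ± 4.01 FPKM with SNHG5 siRNA and 64.8 ± 1.48 FPKM with control siRNA, without overlap. CREB1, CREM and ATF1 summed to 10.9 ± 0.483 FPKM with SNHG5 siRNA and 9.06 ± 0.575 FPKM with control siRNA, also without overlap. Of the PKA regulatory subunits, PRKAR2A made up 20.2% ± 0.886 of the summed FPKM with SNHG5 siRNA and 15.6% ± 0.527 with control siRNA. PRKAR1A made up 66.8% ± 0.892 with SNHG5 siRNA and 72.5% ± 1.25 with control siRNA, although its own FPKM was slightly higher with SNHG5 siRNA. ATF1 made up 44.3% ± 2.18 of the sum with CREB1 and CREM with SNHG5 siRNA and 31.8% ± 1.64 with control siRNA. With 3 libraries a group, an exact permutation test cannot go below p = 0.1 (2-sided), so these shares were not tested; they are parts of a whole, and one share cannot change without another.

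**Figure D4:**
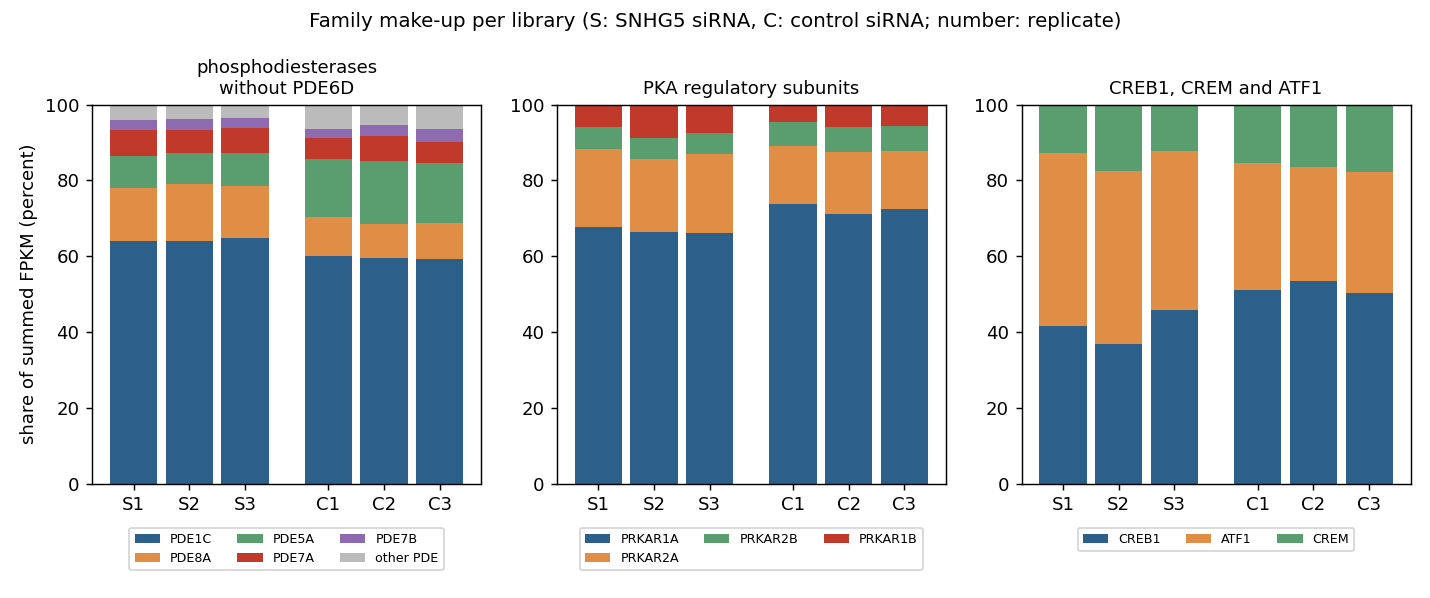
Share of summed FPKM (vertical axis, percent) taken by each gene in 3 families, per library, with SNHG5 siRNA libraries (S1 to S3) left of control siRNA libraries (C1 to C3). PDE8A, PRKAR2A and ATF1 (orange) took larger shares in all 3 SNHG5 siRNA libraries than in any control library.

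The word GTGCAAT stood in the 3' UTR of 12 of the 38 tested members, or 31.6%, and of 14.2% of all tested genes with an annotated 3' UTR. The members' longest transcripts were longer (median 4775 bases over the 38, against 3757 bases over all genes). Lengths of the 3' UTRs were not compared, and the part of length in these shares was not tested. Of the 12, 4 were higher (PDE8A and PRKAR1B among them), 1 was lower (PDE1A) and 7 did not pass. Of all tested genes with the word 22.6% were higher and 18.5% lower. Median log2 fold changes were 0.07 for members with the word and 0.07 for those without, beside 0.02 and -0.01 over all genes. A match describes the letters in the annotation and shows no binding.

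Other genes of the pathway were counted from 4 lists, with the members left out. Of 94 such genes tested 17 were higher, 23 were lower and 54 did not pass, with a median log2 fold change of -0.02. The passing share was 42.6%, close to the 40.2% of all genes. The list of receptors that couple to the stimulatory or inhibitory G protein also held RAMP1, which is not itself such a receptor. Of its 16 tested genes 1 was higher and 2 were lower, or 18.8% passing. S1PR1, a sphingosine-1-phosphate receptor, averaged 12.1 ± 1.07 CPM with SNHG5 siRNA and 8.94 ± 0.411 CPM with control siRNA (log2 fold change 0.44, adjusted p = 0.00193, edgeR). PTGIR, the prostacyclin receptor, averaged 1.79 ± 0.292 CPM with SNHG5 siRNA and 3.07 ± 0.481 CPM with control siRNA (log2 fold change -0.76, adjusted p = 0.00573, edgeR). The adenosine receptor ADORA2A likewise differed by -0.76 on the log2 scale (adjusted p = 0.0322, edgeR), which did not pass without SNHG5 siRNA replicate 1 (-0.66, 0.104), SNHG5 siRNA replicate 3 (-0.60, 0.119), control siRNA replicate 2 (-0.73, 0.0895) or control siRNA replicate 3 (-0.63, 0.137), nor with DESeq2 (adjusted p = 0.0675), with the GC trend removed (0.0643) or in the 3 fits to FPKM.

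Among 24 tested G protein subunits and regulators, 5 were higher and 4 were lower, or 37.5% passing beside 40.2% of all genes. RGS4, which speeds GTP hydrolysis on G protein alpha subunits, had 334, 330 and 348 CPM with SNHG5 siRNA and 177, 172 and 181 CPM with control siRNA. The SNHG5 siRNA libraries were far above the controls, a log2 fold change of 0.93 (SE 0.05, adjusted p = 4.57e-11, edgeR). RGS19, of the same family, was higher by 0.52 on the log2 scale (adjusted p = 0.00514, edgeR). ARRB1, the beta-arrestin that uncouples receptors from G proteins, averaged 14.1 ± 0.42 CPM with SNHG5 siRNA and 21.3 ± 1.23 CPM with control siRNA, a log2 fold change of -0.60 (adjusted p = 1.4e-05, edgeR). The gamma subunit GNG2 differed by -0.40 on the log2 scale (adjusted p = 0.0456, edgeR), which did not pass without SNHG5 siRNA replicate 2 (-0.23, 0.213), control siRNA replicate 2 (-0.35, 0.142) or control siRNA replicate 3 (-0.38, 0.122), nor with DESeq2 (adjusted p = 0.088) or in the 3 fits to FPKM.

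Of 29 tested effectors, PKA inhibitors and CREB coactivators, 7 were higher and 8 were lower, or 51.7% passing beside 40.2% of all genes. CREBL2, a small leucine-zipper protein related to CREB, averaged 56.1 ± 1.93 CPM with SNHG5 siRNA and 34.3 ± 1.05 CPM with control siRNA (log2 fold change 0.71, adjusted p = 4.06e-08, edgeR). RAPGEF3, the cAMP-gated exchange factor EPAC1, averaged 14.2 ± 0.532 CPM with SNHG5 siRNA and 10.6 ± 0.871 CPM with control siRNA (log2 fold change 0.42, adjusted p = 0.00133, edgeR). The PKA inhibitor PKIB and the kinase SIK3, which acts on CREB coactivators, were lower by log2 fold changes of -0.59 and -0.37 (adjusted p = 0.00475 and 0.00199, edgeR).

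Of 27 tested genes known to respond to cAMP or CREB in other settings, 4 were higher and 9 were lower, with a median log2 fold change of -0.20. These were 14.8% and 33.3%, beside 20.3% higher and 19.9% lower and a median of -0.01 over all genes, and the difference was not tested. HAS2, which makes the hyaluronan matrix of the cumulus, had 2.93, 2.06 and 3.5 CPM with SNHG5 siRNA and 0.781, 0.689 and 1.04 CPM with control siRNA, a log2 fold change of 1.76 (SE 0.26, adjusted p = 3.2e-05, edgeR). Its groups did not overlap. PTGS2, the inducible prostaglandin synthase, averaged 1.18 ± 0.151 CPM with SNHG5 siRNA and 0.551 ± 0.195 CPM with control siRNA, a log2 fold change of 1.12 (adjusted p = 0.0111, edgeR) that did not pass without control siRNA replicate 2 (0.92, 0.0681). JUNB, a subunit of AP-1, averaged 5.45 ± 0.394 CPM with SNHG5 siRNA and 11.1 ± 1.0 CPM with control siRNA, and its log2 fold change was -1.03 (adjusted p = 8.83e-07, edgeR). The clock gene PER1 averaged 6.38 ± 0.564 CPM with SNHG5 siRNA and 12.6 ± 1.09 CPM with control siRNA, with a log2 fold change of -0.99 (adjusted p = 9.03e-07, edgeR). Among the members, PDE4B, PDE4D and CREM are also known targets. PDE4B and PDE4D were lower, and CREM did not pass (log2 fold change 0.13, adjusted p = 0.318, edgeR).

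**Figure D5:**
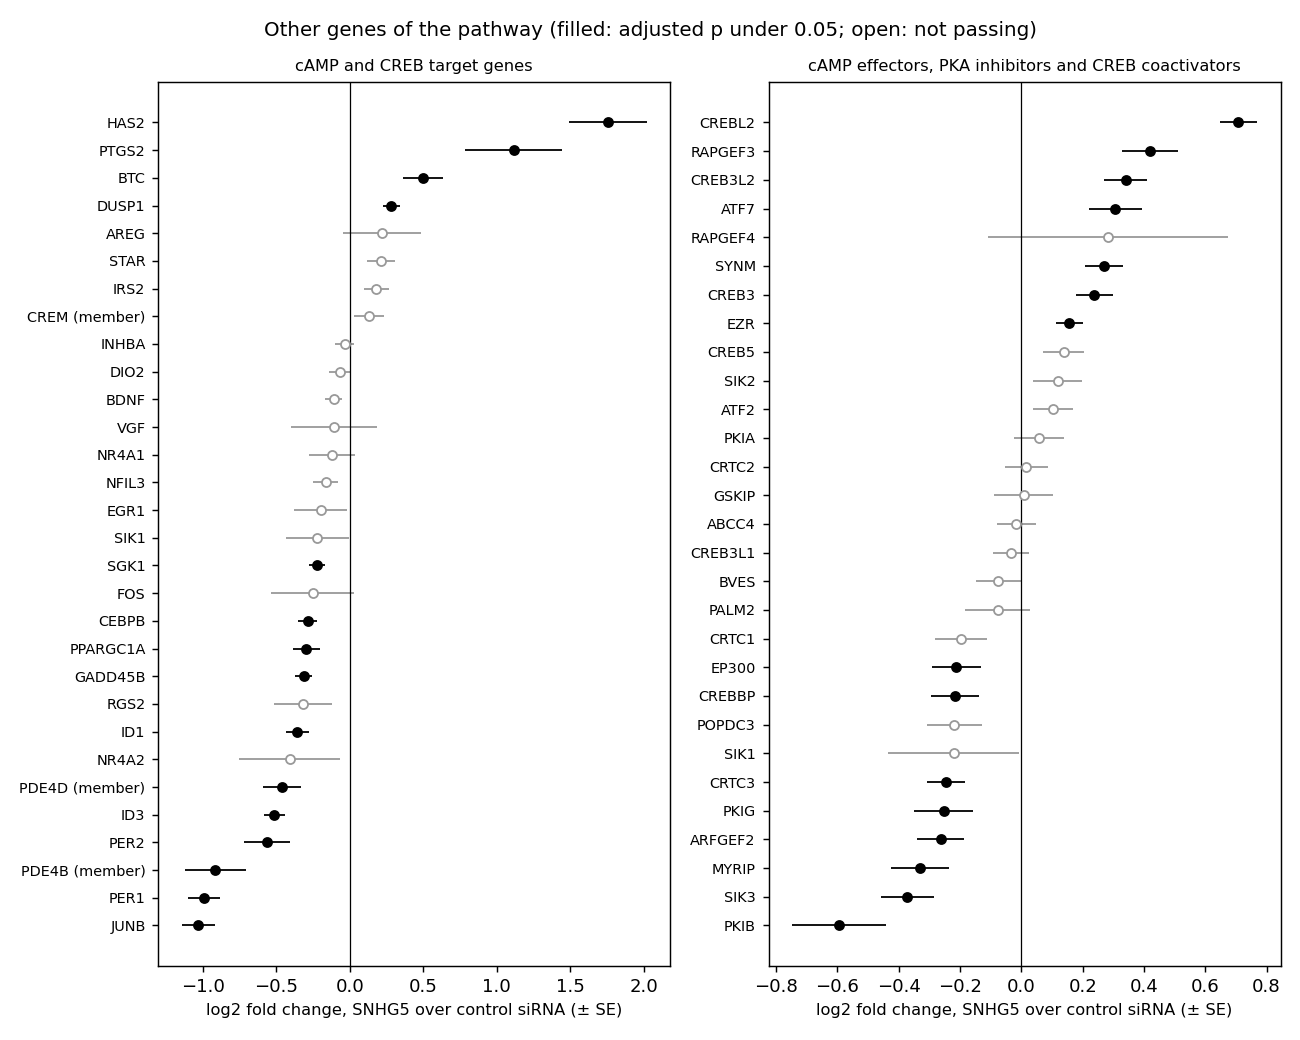
Log2 fold change (horizontal axes, SNHG5 siRNA over control siRNA, bars ± SE) of tested cAMP and CREB target genes (left) and of cAMP effectors, PKA inhibitors and CREB coactivators (right); filled points passed at an adjusted p under 0.05, and entries marked as members are described above. HAS2 at 1.76 and JUNB at -1.03 bound the target genes, and CREBL2 at 0.71 and PKIB at -0.59 bound the others.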

How the data were processed

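RNA was measured by mRNA sequencing (SMARTER kit, 1.0 µg of total RNA) in 6 libraries of KGN cells, 3 with SNHG5 siRNA and 3 with control siRNA. Per the submitters' processing notes, reads were trimmed with Trimmomatic and the build was GRCh38. The aligner, the counting program, its strand setting and the annotation are not given in the sources used here. Whole-number counts per gene name, not normalized, formed the table of counts the authors deposited. The deposited FPKM table held FPKM, scaled to gene length and depth by the authors. Both tables held 0 columns of other samples.

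The 60 members, the companion and marker lists and the rule for named genes were chosen with earlier results of these data known. The rule gave library values for the receptors, GNAS, the CREB factors, passing members with an absolute log2 fold change of at least 0.3 and the highest member of each role. For companion lists it named up to 4 passing genes with the largest changes. Library values of ADCY3, ADCY6, PDE6D, PDE8B, AKAP2, RGS4 and HAS2 were added after their values were seen.

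Genes kept by filterByExpr were scaled by TMM (factors 0.998 to 1.003) and tested with edgeR's quasi-likelihood test (edgeR 4.0.16, R 4.3.3; 2-sided), with Benjamini-Hochberg adjustment over all 12508 genes. The SE is the log2 fold change divided by the root of its F. Alternatives used DESeq2 1.42.0, limma 3.58.1 on log2 FPKM with 1 or 0.1 added, other scalings and filters, and trends on length and GC removed. Each library was also left out in turn. FPKM understates changes of low genes after the addition. A floor of 3 counts was taken, and it covers counting error only.

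GENCODE v29 matched 19261 names and gave the 3' UTRs. Sequences were matched by symbol, with the miRNA taken from RefSeq. Some 3' UTR stretches are not reported here. Python 3.11.15 and matplotlib 3.10.9 drew the plots.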

Additional observations from a re-analysis of the deposited data

How the results depend on the processing

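Over 18 other settings the log2 fold changes of 24 members gave 430 values: 364 kept their direction and side of the threshold, 38 no longer passed, 19 newly passed and 9 changed sign. These 24 did not include the other 14 tested members that did not pass, listed with the CREB factors above. Of those 14, ADCY9, AKAP9 and AKAP11 passed without SNHG5 siRNA replicate 2. Calls among the 14 also arose in other settings, such as upper-quartile scaling and the replicate block, and are not named here. All sign changes among the 24 were in members that did not pass. For CREB1 the log2 fold change was -0.034 with upper-quartile factors, -0.0691 with the GC trend removed, -0.0456 on FPKM with 1 added with or without the filter, -0.0561 with 0.1 added, and -0.0717 to 0.0776 when 1 library was left out (below 0 without SNHG5 siRNA replicate 3 or control siRNA replicate 2). For CREM it was -0.0012 without SNHG5 siRNA replicate 2 and up to 0.207 without another library. Of the 17 calls, 9 held in all 18 settings (AKAP12, ATF1, PDE1A, PDE1C, PDE4B, PDE5A, PDE8A, PRKAR1B and PRKAR2A). The count of members lower was 3 on FPKM with 1 added, 4 with 0.1 added and 4 with 1 added and no filter, beside 7 from counts. Companion genes lower were 11, 11 and 12 in the same settings, beside 23. The cause was not tested. Leaving out 1 library gave 7 to 15 members higher and 5 to 8 lower, and 16 to 22 companion genes higher and 16 to 23 lower. Of 270 values for 15 companion genes, 252 stayed and 18 no longer passed. The alternatives for companion genes were added after the data were seen.

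Whether replicate numbers pair the libraries was not settled. Deviations of same-numbered libraries correlated weakly, at 0.046, 0.130 and 0.026. Those of differently numbered libraries correlated at -0.116 to 0.084, and SNHG5 siRNA replicate 3 correlated best with control siRNA replicate 1 (0.084). With the replicate block 11 members were higher and 8 lower, and 5714 genes passed in all, against 5026. With the block and the length trend removed together, 11 were higher and 7 lower, and the log2 fold change of CREB1 was -0.000734. Depth limits the members with few counts: PDE8B (0 to 9 per library) and PDE4A (3 to 10) did not pass the filter on low counts and were not compared.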

Other observations

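RefSeq promoters (GRCh38.p14, 250 bases before to 50 after the start) were found for 50 members and 14994 names of the count table. Each gene was searched in a single window, so its other promoters, where it has any, were not covered. The cAMP response element TGACGTCA stood in 2 members' promoters, those of PDE4A and PDE7B, or 4.0% against 2.57% of all. Neither gene passed: PDE4A had 3 to 10 counts and was not tested, and PDE7B averaged 5.66 ± 0.203 CPM with SNHG5 siRNA and 5.29 ± 0.866 CPM with control siRNA (log2 fold change 0.10, adjusted p = 0.588, edgeR). The half-site TGACG, searched on both strands and contained in the full element, stood in 28.0% of the members' promoters and 29.5% of all, and the E-box CACGTG in 12% and 8.93%. The promoter of FSHR held none of these words in this window.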
